A study of Rattus norvegicus with 12 samples.

Results

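AMP-activated protein kinase (AMPK) is the energy sensor of the heart muscle cell, and the acetyl-CoA carboxylases are among its best known substrates. The 10 genes described here encode its 7 subunits, the upstream kinase Stk11 and both carboxylases (Acaca and Acacb), and they were chosen by symbol from a left atrial RNA-seq table that lists 37246 rat genes, 21239 of them with counts. All 10 were found once each and passed the filter on low counts in each of the 4 comparisons. Their levels are given as CPM (counts scaled to the total of each library), which are not corrected for transcript length and so are compared only between libraries.

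The table holds 12 libraries, 3 in each of 4 groups of male rats, bought at 14 weeks of age and then treated over 4 weeks. Wistar-Kyoto rats, a normotensive strain, received saline at 7.5 ml/kg/day (WKY), and spontaneously hypertensive rats received saline at the same dose (SHR), valsartan at 30 mg/kg/day (ARB) or sacubitril/valsartan at 60 mg/kg/day (ARNI). Valsartan blocks the angiotensin II type 1 receptor, and sacubitril adds inhibition of neprilysin, a protease that degrades natriuretic peptides. Titles of the 6 saline libraries name one strain in words and the other in the bracketed library name, and grouping here follows the library name. For both drug groups the sample labels give the Wistar-Kyoto strain beside a hypertensive phenotype, and these rats were taken as SHRs, as the methods of the study state.

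The labelled tissue was checked against chamber markers, and the libraries did not all match it. In the 3 WKY libraries, 7 atrial cardiomyocyte markers summed to only 105 to 322 CPM and 5 ventricular markers to 43270 to 43600 CPM. Myl7 (the atrial myosin light chain) was at 0.889 to 15.9 CPM there, and the atrial markers Bmp10 and Mybphl had no read in at least 1 WKY library, although Bmp10 was low in SHR 3 as well (1.02 CPM). In the SHR group the atrial sum was 27830 to 77390 CPM and the ventricular sum 371 to 9833 CPM. ARNI 2 also lacked an atrial profile, with Myl7 at 9.67 CPM and Myl2 (the ventricular light chain) at 4161 CPM. Its ventricular sum of 18560 CPM was nevertheless below the WKY sums. The ventricular marker Myh7 was at 5907 CPM in ARNI 2 and at 32130 to 32740 CPM in WKY. SHR 2 and ARB 3 carried both light chains, with Myl7 at 4478 and 5144 CPM and Myl2 at 2298 and 2573 CPM. The other 6 libraries had Myl7 from 7568 to 11550 CPM and Myl2 from 0.136 to 24.2 CPM. Bmp10 did not follow Myl7 among them, at 1.02 CPM in SHR 3, 140 CPM in ARNI 3 and 563 to 1741 CPM in the rest. Strain and chamber markers therefore cannot be told apart in the comparison of SHR with WKY, and values of single libraries are given throughout. Markers of skeletal muscle fibres summed to at most 8.47 CPM in any library. Fibroblast markers summed to 4843 CPM in SHR 3 and 3252 CPM in ARNI 3 and to at most 2547 CPM elsewhere. The markers did not all move together. In ARNI 3, Dcn (612 CPM), Lum (97.5 CPM) and Pdgfra (78.4 CPM) were below every WKY library, while Col1a1, Col1a2 and Col3a1 were above them. In SHR 3, Pdgfra (97.8 CPM) was below WKY 1 and WKY 2 (111 and 103 CPM). White adipocyte markers summed to 434 CPM in ARB 2 and 237 CPM in ARNI 3 and to at most 24.0 CPM elsewhere. Library totals ran from 11252361 to 15823525 reads.

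As background, AMPK is a trimer of a catalytic α subunit (Prkaa1 or Prkaa2), a scaffolding β subunit that binds glycogen (Prkab1 or Prkab2) and a γ subunit that binds AMP, ADP and ATP (Prkag1, Prkag2 or Prkag3). LKB1, the product of Stk11, phosphorylates the activation loop of α when the cell is short of ATP. Active AMPK phosphorylates and inhibits both carboxylases, which make malonyl-CoA. Cytosolic ACC1 (Acaca) supplies malonyl-CoA for fatty acid synthesis, whereas ACC2 (Acacb) sits at the mitochondrial outer membrane, where malonyl-CoA restrains carnitine palmitoyltransferase 1 and with it fatty acid oxidation. In the heart α2 and ACC2 are regarded as the main forms, γ2 is the subunit whose mutations cause a human cardiomyopathy with glycogen storage, and γ3 is known mainly from skeletal muscle. These data are transcript levels and say nothing of phosphorylation or activity.

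**Figure D1:**
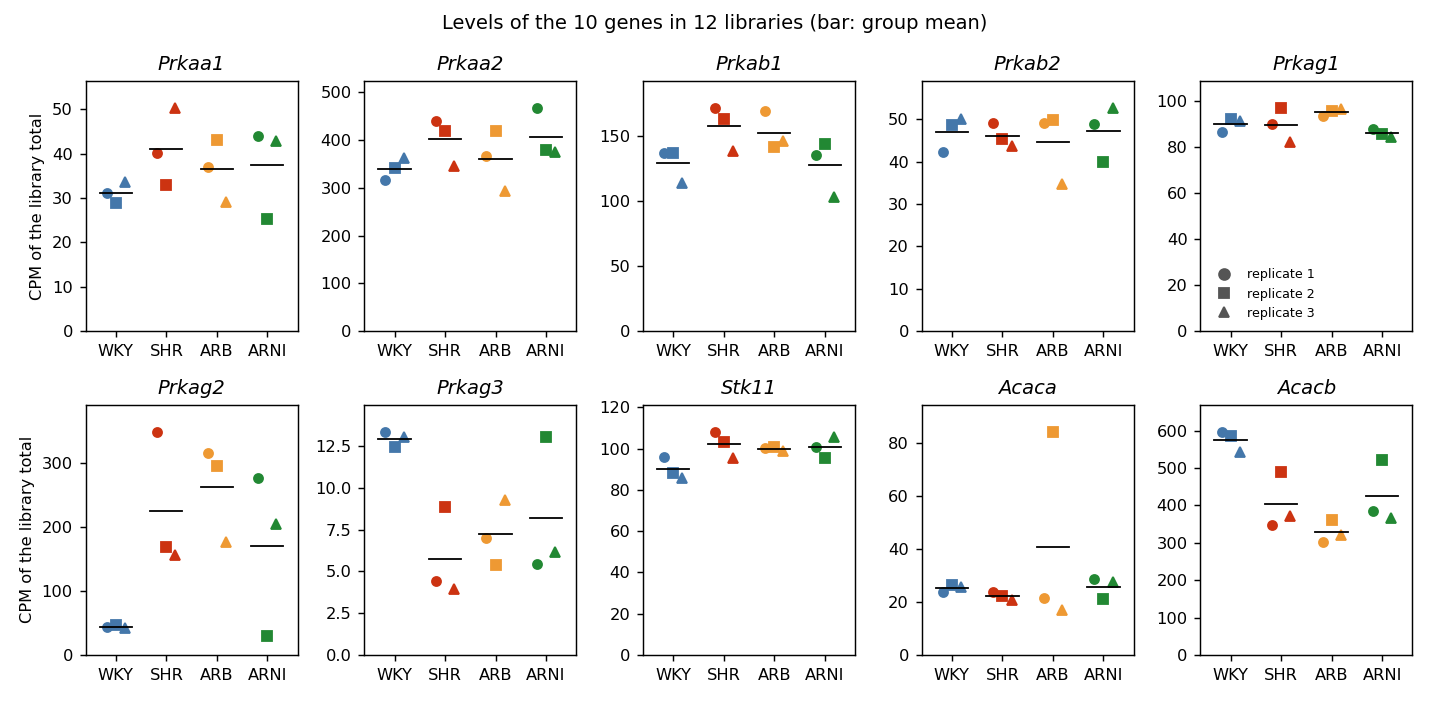
CPM of each of the 10 genes (vertical axes, starting at 0) in the 3 libraries of the WKY, SHR, ARB and ARNI groups (horizontal axes). Symbols mark the replicate number and bars the group means. Prkag2 lies between 41.6 and 46.9 CPM in WKY and between 156 and 349 CPM in SHR, and Acaca stands apart in ARB 2 at 84.2 CPM.

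Over the 12 libraries the genes fell into a steady and a variable set. The standard deviation of log2 CPM (TMM-scaled, prior count of 1 read) was 0.10 for Stk11, 0.13 for Prkag1, 0.15 for Prkab2, 0.18 for Prkaa2, 0.22 for Prkaa1 and 0.23 for Prkab1, each below the median of 0.33 over 14452 genes. Only 1.68% of those genes varied less than Stk11. The same measure was 0.41 for Acacb, 0.54 for Acaca, 0.73 for Prkag3 and 1.25 for Prkag2, and 93.6% of genes varied less than Prkag2.

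Between SHR and WKY, 2 of the 10 genes changed: the γ2 gene Prkag2 rose and the γ3 gene Prkag3 fell. A gene was called when its adjusted p was at most 0.05 in edgeR's quasi-likelihood test (Benjamini-Hochberg over all genes tested). In the same comparison 20.6% of 13794 genes were called, 12.3% as higher and 8.26% as lower, and 8.89% were called and also moved by at least 1 on the log2 scale, as both γ genes did. A count of 2 in 10 is close to the 20.6% called among all genes. It is above the 8.89% that also moved by at least 1, and nothing is read from so few genes. CPM values of the groups did not overlap for 5 of the 10 genes (Prkab1 and Prkag2 higher, Prkag3, Acaca and Acacb lower), against 49.6% of all genes. In these bulk samples fewer cells of a type and less RNA per cell cannot be told apart.

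Prkag2 reached 42.8, 46.9 and 41.6 CPM in WKY, and in SHR it reached 349, 169 and 156 CPM. It was at 315, 295 and 177 CPM in the ARB group and at 276, 28.9 and 205 CPM in the ARNI group. All SHR and ARB libraries were above all WKY libraries, whereas ARNI 2 was below them. From WKY to SHR the log2 fold change was 2.23 ± 0.33 (SE, 3 libraries per group, edgeR adjusted p = 0.00971), or 4.68-fold. Group means ran from 262 ± 74.9 CPM in ARB through 224 ± 108 CPM in SHR and 170 ± 127 CPM in ARNI to 43.8 ± 2.81 CPM in WKY (SD, n = 3 each), and the values of the first 3 groups overlapped. Prkag2 counts were not whole numbers in any of the 12 libraries, so part of its reads was shared out between genes by the authors' estimate. The call was lost when any 1 WKY library was left out (edgeR adjusted p from 0.0558 to 0.0572) and in a fit of all 12 libraries (0.0519), with log2 fold changes of 2.199 to 2.273.

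Prkag2, Prkag3 and Acacb are shown here with the sequence around their annotated starts, to set the Prkag2 starts beside those of Prkag3 and Acacb, which ran the opposite way across libraries. RefSeq promoter windows of the GRCr8 assembly, 250 bases before to 50 after a start, were found for 9 of the 10 genes (all but Acaca), 10 windows in all, and Prkag2 has 2 of them. They are given 5′ to 3′ on the gene's strand. Capitals mark matches, on either strand, to the GC box GGGCGG, to the CCAAT box, which is spelled by its name, or to the nuclear receptor half-site AGGTCA. The TATA box TATAAA and the E-box with the letters CACGTG were also searched and have no match in these windows. No matches overlap in the windows shown.
Prkag2, start 1, chr4:10744445-10744744, plus strand: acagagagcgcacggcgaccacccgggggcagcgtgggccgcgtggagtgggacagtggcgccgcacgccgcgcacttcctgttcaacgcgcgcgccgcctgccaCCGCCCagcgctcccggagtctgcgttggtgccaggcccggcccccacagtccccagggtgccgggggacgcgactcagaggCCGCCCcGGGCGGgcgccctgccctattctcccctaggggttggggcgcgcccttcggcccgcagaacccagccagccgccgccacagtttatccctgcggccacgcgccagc
Prkag2, start 2, chr4:10939230-10939529, plus strand: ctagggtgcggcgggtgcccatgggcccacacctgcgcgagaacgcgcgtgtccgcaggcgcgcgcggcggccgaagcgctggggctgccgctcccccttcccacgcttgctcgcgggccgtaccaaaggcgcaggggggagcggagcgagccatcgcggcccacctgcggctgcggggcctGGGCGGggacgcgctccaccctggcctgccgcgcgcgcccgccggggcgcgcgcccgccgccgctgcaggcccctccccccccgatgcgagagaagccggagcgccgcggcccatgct
Prkag3, chr9:83753580-83753879, minus strand: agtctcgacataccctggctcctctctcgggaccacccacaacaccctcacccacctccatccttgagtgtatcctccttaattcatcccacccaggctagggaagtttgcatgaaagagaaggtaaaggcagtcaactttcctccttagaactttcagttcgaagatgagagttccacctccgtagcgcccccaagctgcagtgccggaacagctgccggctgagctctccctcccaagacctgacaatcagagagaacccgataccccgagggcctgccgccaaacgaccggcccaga
Acacb, chr12:48138165-48138464, minus strand: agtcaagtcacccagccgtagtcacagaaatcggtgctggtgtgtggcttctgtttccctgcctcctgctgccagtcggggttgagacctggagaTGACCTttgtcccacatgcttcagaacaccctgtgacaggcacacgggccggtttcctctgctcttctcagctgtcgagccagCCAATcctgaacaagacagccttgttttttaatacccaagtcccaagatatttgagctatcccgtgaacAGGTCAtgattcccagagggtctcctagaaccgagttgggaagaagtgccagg

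The Prkag2 windows were rich in G and C. Start 1 had 76.0% GC, 38 CpG dinucleotides and 3 GC boxes, and start 2 had 80.3% GC, 48 CpG dinucleotides and 1 GC box, against medians of 51.7% and 7 over 33469 rat promoter windows. The Prkag3 window had 56.7% GC and 12 CpG dinucleotides and held none of the 5 motifs. The Acacb window had 53.7% GC and 8 CpG dinucleotides, with 1 CCAAT box and 2 half-sites. High GC was not particular to Prkag2. Windows of Prkaa1, Prkaa2, Prkab1, Prkab2, Prkag1 and Stk11, not called between SHR and WKY, had 60.7% (Stk11) to 81.3% GC (Prkaa1). They held 22 (Prkag1) to 49 CpG dinucleotides (Prkaa1), and the Prkaa1 window had 6 GC boxes while that of Prkab1 had 0. The half-site occurs in 16.2% of all windows. A GC box occurs in 33.1%, a CCAAT box in 37.5%, a TATA box in 14.2% and this E-box in 6.42% of all windows. These matches describe the letters of the windows, and the deposited gene totals do not separate the 2 Prkag2 starts.

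Prkag3 was at 13.4, 12.4 and 13.1 CPM in WKY and at 4.41, 8.83 and 3.93 CPM in SHR. It was at 7.01, 5.37 and 9.28 CPM in ARB and at 5.44, 13.1 and 6.17 CPM in ARNI. The groups did not overlap between WKY and SHR, with SHR 2 the nearest, and ARNI 2 was again at the WKY level. The gene fell by 1.30 on the log2 scale from WKY to SHR (SE 0.34, edgeR adjusted p = 0.0420), or 2.46-fold. Prkag3 was a low gene, with 58 to 166 reads per library. Its call did not hold when any single library other than SHR 2 was left out (edgeR adjusted p from 0.0664 to 0.127), nor in the fit of all 12 libraries (0.0890). Without SHR 2, which carried both chamber profiles, it fell by 1.80 (edgeR adjusted p = 0.000489).

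The γ1 gene Prkag1, which is expressed in most tissues, was not called. It was at 86.4, 91.9 and 91.5 CPM in WKY, 89.9, 97.0 and 82.0 CPM in SHR, 93.4, 95.7 and 96.5 CPM in ARB and 87.6, 85.7 and 84.4 CPM in ARNI. WKY and SHR libraries overlapped, and the log2 fold change was -0.13 ± 0.12 (edgeR adjusted p = 0.436). TMM scaling lowers log2 fold changes of SHR over WKY by about the amount that separates the medians of all genes, 0.15 without scaling and 0.01 with it, so fitted changes of the steady genes lie below the ratio of their CPM means. The log2 ratio of Prkag2 to Prkag1, which no scaling of libraries touches, was -1.01, -0.97 and -1.14 in WKY and 1.95, 0.80 and 0.93 in SHR. It was 1.75, 1.63 and 0.87 in ARB and 1.65, -1.57 and 1.28 in ARNI. Its difference between SHR and WKY was 2.27 ± 0.37 (SE), with no overlap, and the two-sided exact permutation p was 0.1, the smallest that 3 against 3 libraries allow (0.267 adjusted over 4 ratios). Because the ratio compares 2 genes of unknown transcript length, only its shift between libraries can be read.

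**Figure D2:**
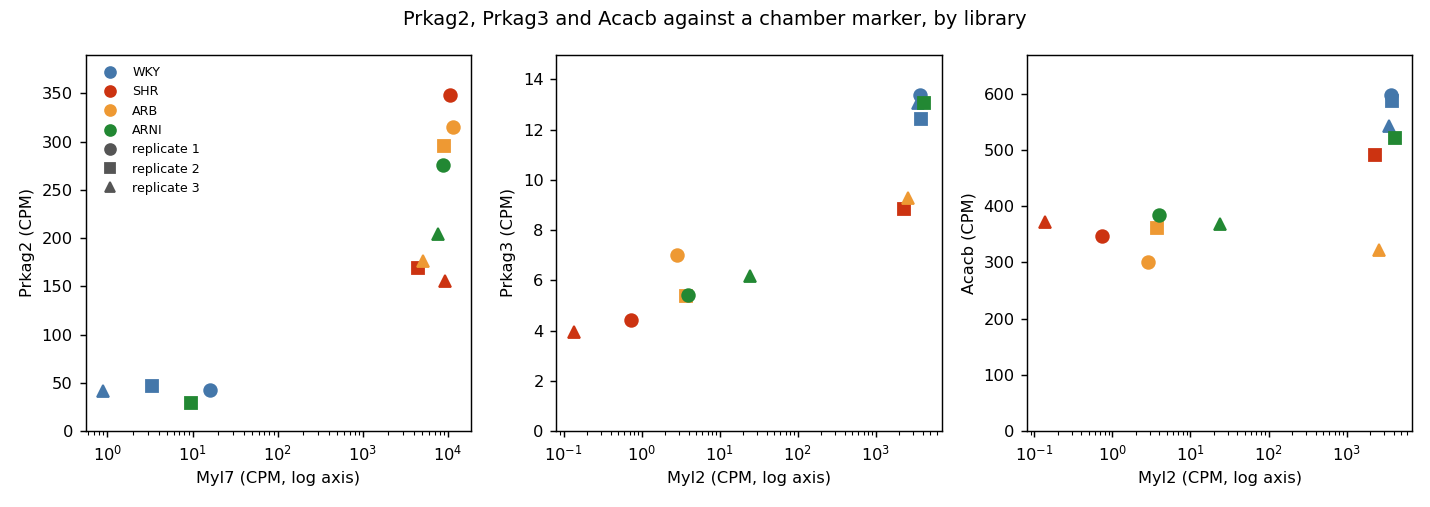
CPM of Prkag2 against the atrial light chain Myl7, and of Prkag3 and Acacb against the ventricular light chain Myl2 (horizontal log axes, vertical axes from 0), 1 point per library. The 3 WKY libraries and ARNI 2 lie together in every panel, with Prkag2 at or below 46.9 CPM, Prkag3 at or above 12.4 CPM and Acacb at or above 522 CPM.

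Levels of Prkag2, Prkag3 and Acacb were set beside chamber markers library by library, since libraries of the same labelled group differed in both. ARNI 2, a library of the hypertensive strain with Myl7 at 9.67 CPM, had Prkag2 at 28.9 CPM, Prkag3 at 13.1 CPM and Acacb at 522 CPM. Each of these was nearer to the WKY means of 43.8, 13.0 and 576 CPM than to the SHR means of 224, 5.72 and 403 CPM. SHR 2 and ARB 3, with both light chains, had Prkag2 at 169 and 177 CPM and Prkag3 at 8.83 and 9.28 CPM. For Prkag3 these values lay between those of the 4 libraries with little Myl7 and those of the 6 libraries with little Myl2. For Prkag2 they did not, since SHR 3, with Myl2 at 0.136 CPM, was lower still at 156 CPM. Acacb was also split, at 491 CPM in SHR 2 and 322 CPM in ARB 3. These marker levels were seen together with the outcome, and their part in the differences was not tested.

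Neither catalytic subunit gene was called in any of the 4 comparisons. Prkaa2 (α2) was at 316, 343 and 362 CPM in WKY and at 440, 418 and 346 CPM in SHR, and its log2 fold change was 0.11 ± 0.15 (edgeR adjusted p = 0.622, 95% interval -0.26 to 0.47). It was at 368, 419 and 294 CPM in ARB and at 468, 379 and 375 CPM in ARNI. The 3 groups of SHRs overlapped one another and only ARNI did not overlap WKY, and the mean was lowest in WKY (340 ± 23.0 CPM) and highest in ARNI (407 ± 52.4 CPM). Prkaa1 (α1) was at 31.2, 28.9 and 33.7 CPM in WKY and at 40.3, 32.9 and 50.3 CPM in SHR, and SHR 2 lay within the WKY range. Its log2 fold change was 0.25 ± 0.14 (edgeR adjusted p = 0.214). Without SHR 2 it was 0.36 ± 0.11 and passed the test (edgeR adjusted p = 0.0462). Prkaa1 was at 37.1, 43.2 and 29.1 CPM in ARB and at 43.9, 25.2 and 42.9 CPM in ARNI, with ARNI 2 the lowest of all 12 libraries. The log2 ratio of Prkaa2 to Prkaa1 differed by -0.14 ± 0.27 between SHR and WKY (exact permutation p = 0.9), and by 0.12 without SHR 3. SHR 3, the highest library for Prkaa1, also had the highest fibroblast marker sum, although the fibroblast marker Pdgfra was higher in WKY 1 and WKY 2. The part of fibroblast RNA was not tested.

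Neither scaffold subunit gene was called. Prkab1 (β1) was at 137, 137 and 114 CPM in WKY and at 172, 163 and 138 CPM in SHR, so the groups were separated by a narrow gap. Its log2 fold change was 0.16 ± 0.14 (edgeR adjusted p = 0.443), and it was at 169, 142 and 146 CPM in ARB and 136, 144 and 103 CPM in ARNI. ARNI 3 was the lowest library for β1. Prkab2 (β2) was at 42.4, 48.6 and 50.0 CPM in WKY and at 49.1, 45.4 and 43.7 CPM in SHR, with a log2 fold change of -0.16 ± 0.11 (edgeR adjusted p = 0.320). It was at 49.1, 49.8 and 34.7 CPM in ARB and 48.9, 39.9 and 52.7 CPM in ARNI. Here ARB 3 was lowest and the groups overlapped. The ratio of Prkab2 to Prkab1 was lower in SHR by 0.31 on the log2 scale (SE 0.16, exact permutation p = 0.2).

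Stk11, the gene of the upstream kinase LKB1, was the steadiest of the 10. It was at 95.9, 88.3 and 85.9 CPM in WKY, 108, 103 and 95.5 CPM in SHR, 100.2, 100.6 and 98.6 CPM in ARB and 100.7, 95.7 and 106 CPM in ARNI. SHR 3 and ARNI 2 fell within the WKY range and the other libraries of the hypertensive strain above it. From WKY to SHR the log2 fold change after scaling was 0.05 ± 0.11 (edgeR adjusted p = 0.739, 95% interval -0.20 to 0.31). Stk11 counts were not whole in 10 libraries and those of Prkaa2 in 7, and the counts of the remaining genes other than Prkag2 were whole in every library.

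Of the carboxylases, Acacb was at 598, 587 and 543 CPM in WKY and at 347, 491 and 371 CPM in SHR. It was at 302, 362 and 322 CPM in ARB and at 384, 522 and 368 CPM in ARNI. Every library of the hypertensive strain was below every WKY library, and the nearest were ARNI 2 and SHR 2. From WKY to SHR the log2 fold change was -0.64 ± 0.18 with an edgeR adjusted p of 0.05002, just over the threshold, so Acacb was not called. It was called by DESeq2 (adjusted p = 0.00481), with RLE scaling in edgeR (0.0445) and without SHR 2 (-0.85 ± 0.09, edgeR adjusted p = 0.000892). Without SHR 2, 4 of the 10 genes were called (Prkag2, Prkag3, Prkaa1 and Acacb), beside 37.8% of all genes.

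Acaca, the cytosolic enzyme, was at 23.6, 26.2 and 25.7 CPM in WKY and at 23.5, 22.3 and 20.5 CPM in SHR. The groups were adjacent without overlap, and the log2 fold change was -0.32 ± 0.12 (edgeR adjusted p = 0.0911). It was at 21.4, 84.2 and 16.8 CPM in ARB and at 28.7, 21.0 and 27.4 CPM in ARNI. ARB 2 was 3.57 times the median of the 12 libraries, and the other 11 lay between 16.8 and 28.7 CPM. The log2 ratio of Acacb to Acaca was 4.66, 4.48 and 4.40 in WKY and 3.88, 4.45 and 4.17 in SHR. It was 2.10 in ARB 2, the lowest of all. The ratio fell by 0.34 from WKY to SHR (SE 0.18, exact permutation p = 0.2).

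**Figure D3:**
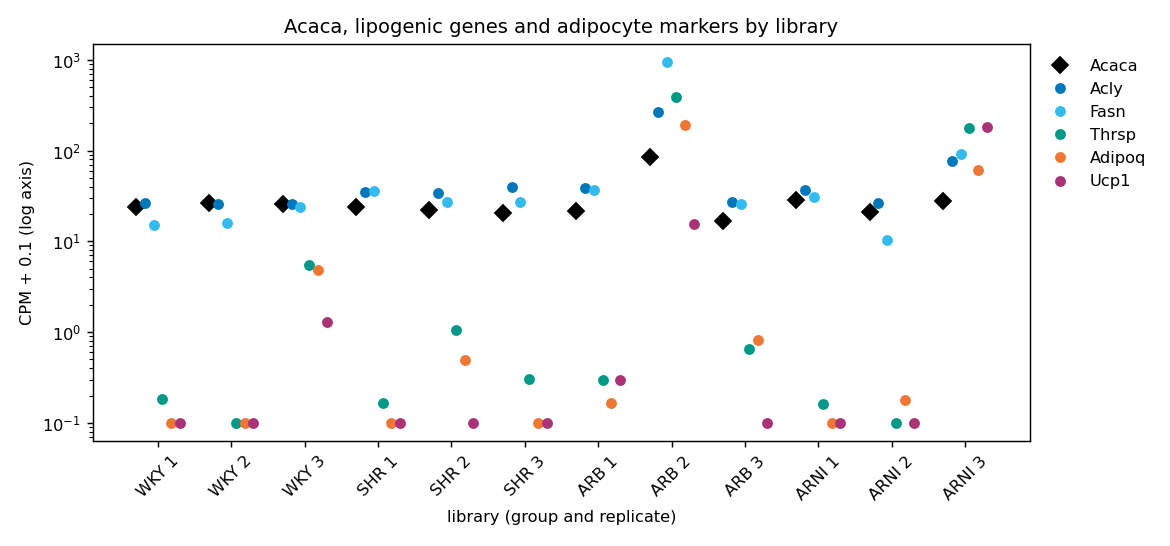
CPM + 0.1 (log axis) of Acaca, 3 lipogenic genes (Acly, Fasn, Thrsp), the adipocyte hormone gene Adipoq and the brown fat gene Ucp1 in each of the 12 libraries, grouped by group and replicate along the horizontal axis. In ARB 2 all of them are high, and in ARNI 3 Acaca stays at 27.4 CPM while Ucp1 reaches 182 CPM.

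ARB 2 was also the library with the highest white adipocyte marker sum and the highest levels of Fasn, Acly and Thrsp. Fasn (fatty acid synthase), which uses the malonyl-CoA of ACC1, was at 945 CPM there, Acly (ATP citrate lyase, which makes cytosolic acetyl-CoA) at 264 CPM and Thrsp (a lipogenic regulator) at 391 CPM. In the libraries other than ARB 2 and ARNI 3 these genes reached at most 37.0, 39.8 and 5.42 CPM. Adipoq was at 192 CPM and Lep (leptin) at 15.96 CPM in ARB 2. Plin1, another white adipocyte marker, went the other way, at 68.85 CPM in ARB 2 and 99.47 CPM in ARNI 3. ARNI 3 had Adipoq at 61.7 CPM, Ucp1 at 182 CPM, Fasn at 90.8 CPM and Thrsp at 177 CPM, but its Acaca level of 27.4 CPM was within the range of the other libraries. Fasn, Thrsp and the adipocyte genes were singled out after their values were seen, and the part of adipocyte RNA in the Acaca level was not tested.

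**Figure D4:**
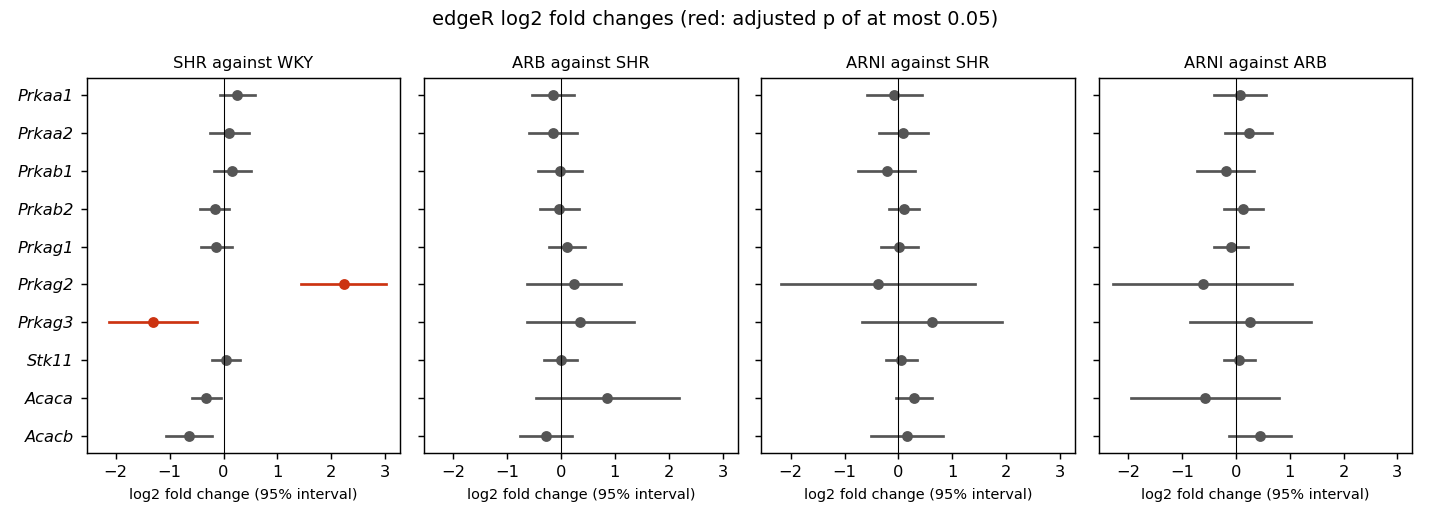
edgeR log2 fold changes (points) with 95% intervals (lines) of the 10 genes in the 4 comparisons, all on 1 horizontal scale. Prkag2 at 2.23 and Prkag3 at -1.30 in SHR against WKY are the only called values, and the intervals of all 10 genes include 0 in each comparison between groups of SHRs.

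No call was made among the 10 genes for either drug. With edgeR 0 of 10 were called in ARB against SHR, 0 in ARNI against SHR and 0 in ARNI against ARB, and none of them had an unadjusted p under 0.05. The background was 0% in each of the 3 comparisons, although 225 of 13979, 227 of 13955 and 539 of 13948 genes had an unadjusted p under 0.05. DESeq2 called 3, 9 and 23 genes, none of the 10. The first pair of these comparisons shares the SHR libraries, and the values stand side by side without a test between them.

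In ARB against SHR, log2 fold changes of the 7 subunit genes ran from -0.14 ± 0.16 (Prkaa1) to 0.36 ± 0.42 (Prkag3), and that of Stk11 was -0.01 ± 0.13. Acaca had the largest value, 0.86 ± 0.56 (95% interval -0.47 to 2.19), and without ARB 2 it was -0.14. Acacb was at -0.28 ± 0.20 (95% interval -0.76 to 0.20). The edgeR adjusted p was 0.9999 for each of the 10.

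In ARNI against SHR, Prkag2 was at -0.38 ± 0.74 (95% interval -2.17 to 1.41). Its SE was the largest of the 10 genes, and ARNI 2 was at 28.9 CPM beside 276 and 205 CPM in the other ARNI libraries. Without ARNI 2 the value was 0.11, and without SHR 1 it was 0.08. Prkag3 was at 0.62 ± 0.53 (95% interval -0.67 to 1.92), Acaca at 0.28 ± 0.14 and Acacb at 0.17 ± 0.28, which became -0.095 without ARNI 2. The other subunit genes lay between -0.22 ± 0.22 (Prkab1) and 0.10 ± 0.11 (Prkab2). The edgeR adjusted p was 0.9993 for each of the 10.

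In ARNI against ARB, Acacb was at 0.45 ± 0.24 (95% interval -0.12 to 1.02), Prkag2 at -0.61 ± 0.69 and Acaca at -0.57 ± 0.57. Without ARB 2, Acaca was at 0.43, so its direction rests on that library. Prkag3 was at 0.27 ± 0.47, and at -0.34 without ARNI 2. Prkaa2 was at 0.24 ± 0.18 and Prkab1 at -0.19 ± 0.22, and the edgeR adjusted p of the 10 genes was 0.9931 or 0.9947. Differences between isoform ratios of the 3 comparisons had exact permutation p-values from 0.4 to 1.

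**Figure D5:**
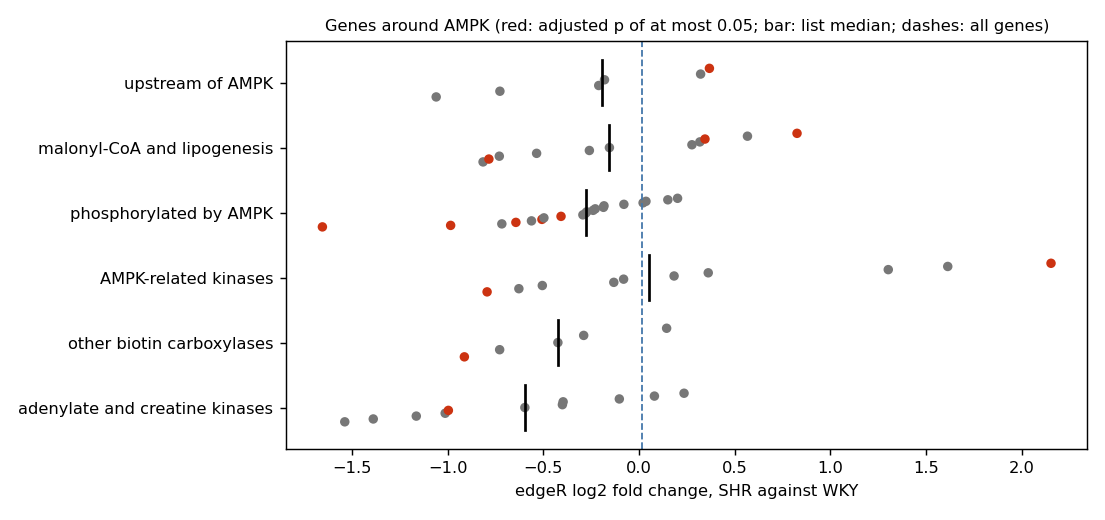
edgeR log2 fold changes of SHR over WKY (horizontal axis) for the genes of 6 lists (rows), 1 point per gene, with the list median as a bar and the median of all genes (0.01) as a dashed line. Called genes are red. Among the 20 proteins phosphorylated by AMPK the 5 red points are all below 0, beside 20.6% of all genes called and 8.26% called as lower.

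The genes around AMPK were examined as 6 lists, and between SHR and WKY 13 of their 63 tested genes were called, 4 as higher and 9 as lower. That is 20.6%, the same share as among all genes (12.3% higher and 8.26% lower), so single genes are described and nothing is read from the counts. Of 6 upstream kinases and scaffold proteins, 1 rose: Map3k7 (the kinase TAK1) was at 86.2, 83.5 and 90.7 CPM in WKY and 135, 115 and 119 CPM in SHR, a log2 fold change of 0.37 ± 0.10 (edgeR adjusted p = 0.0495). The list median was -0.20, beside 0.01 for all genes. Among 13 AMPK-related kinases, 10 were tested, 1 rose and 1 fell, near the 20.6% called among all genes, with a median of 0.05. Mark1 (a microtubule affinity-regulating kinase) was at 4.26, 4.52 and 4.62 CPM in WKY and 30.4, 14.4 and 21.1 CPM in SHR (2.15 ± 0.27, edgeR adjusted p = 0.00672). Nuak1 fell from 64.9, 59.0 and 50.7 CPM to 39.5, 31.1 and 40.2 CPM (-0.79 ± 0.12, edgeR adjusted p = 0.0105). In ARNI 2, Mark1 was at 7.63 CPM, nearer to WKY than to the other ARNI libraries. Nuak1 did not set ARNI 2 apart, at 49.7, 48.9 and 51.4 CPM in ARNI 1, 2 and 3.

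Of 20 proteins that AMPK phosphorylates, 5 fell, 0 rose and 15 were not called, and 16 of the 20 fold changes were below 0 (median -0.28). Among all genes 20.6% were called, 8.26% as lower, and 48.7% of fold changes were below 0. Pfkfb2, which makes the glycolytic activator fructose 2,6-bisphosphate in heart, was at 104, 119 and 100.2 CPM in WKY and 27.7, 55.4 and 28.3 CPM in SHR (-1.66 ± 0.31, edgeR adjusted p = 0.0185). It was at 108 CPM in ARNI 2 and at 24.5 to 39.9 CPM in the other treated libraries. Txnip, which restrains glucose uptake, fell by 0.99 on the log2 scale (SE 0.23, edgeR adjusted p = 0.0296), and Ppargc1a, a coactivator of mitochondrial genes, by 0.64 (SE 0.17, edgeR adjusted p = 0.0397). Rptor (a subunit of mTOR complex 1) fell by 0.51 and the transcription factor gene Foxo3 by 0.41, and these last were named after their values were seen. Across ARNI 1, 2 and 3, Ppargc1a was at 112, 164 and 109 CPM and Rptor at 64.65, 75.07 and 59.91 CPM. Txnip was at 780, 1064 and 1012 CPM there, and Foxo3 at 35.3, 29.95 and 29.5 CPM. ARNI 2 did not stand apart for Txnip or Foxo3.

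Of 12 malonyl-CoA and lipogenic partners of the carboxylases, 11 were tested, 2 rose and 1 fell, beside 20.6% called among all genes (median -0.16). Cpt1b, the muscle carnitine palmitoyltransferase that malonyl-CoA inhibits, was at 1040, 986 and 1027 CPM in WKY and 622, 775 and 534 CPM in SHR (-0.79 ± 0.19, edgeR adjusted p = 0.0360). It was at 1002 CPM in ARNI 2 and at 570 to 763 CPM in the other treated libraries. The low-level isoform gene Cpt1c rose by 0.83 (SE 0.15, edgeR adjusted p = 0.0154), and Acly rose by 0.34 (SE 0.08, edgeR adjusted p = 0.0302). Of 5 other biotin-dependent carboxylases, Pcca (propionyl-CoA carboxylase α) was the 1 that fell, by 0.91 (SE 0.21, edgeR adjusted p = 0.0300), with a list median of -0.42. The 11 adenine nucleotide and creatine kinase enzymes had a median of -0.60. In the 3 comparisons between groups of SHRs, 0 genes of any list were called.

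The genes whose levels ran most like those of single members were named by their Pearson correlation of log2 CPM over the 12 libraries, as a description. For Prkag2 they were Gng2 (0.998), Esr1 (0.990), Thtpa (0.990), Cacna2d2 (0.987) and Rac3 (0.986). Gng2, a G protein γ subunit gene, was at 6.40 to 8.17 CPM in WKY, at 146, 56.5 and 51.9 CPM in SHR and at 4.17 CPM in ARNI 2. For Acacb they were Dsp (desmoplakin, 0.990), Mtif2 (0.983), Fam210a (0.981), Trappc11 (0.978) and Zfp629 (0.978). Dsp was at 1660 to 1769 CPM in WKY, at 827, 1272 and 929 CPM in SHR and at 1514 CPM in ARNI 2. Genes chosen this way resemble the member over the 12 libraries by construction.

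For Prkaa2 the most similar genes were Ero1a (0.937), Ctnna3 (0.896), Rprd1a (0.851), Dcaf5 (0.838) and Magi1 (0.832). For Acaca they were LOC102549542 (0.886), Scd (stearoyl-CoA desaturase, 0.863), RGD1309534 (0.861), Nnat (0.853) and Acly (0.842). Scd was at 1290 CPM in ARB 2 and at most 30.7 CPM elsewhere, so the Acaca coefficients rest on that library. Among the 10 genes themselves, Prkag2 correlated at -0.90 with Acacb and at -0.82 with Prkag3, and Acacb at 0.84 with Prkag3. The libraries behind these coefficients also differed in chamber markers, and they are not independent points along 1 range.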

How the data were processed

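RNA of the left atrium was sequenced on BGISEQ-500. The authors filtered reads with SOAPnuke, aligned them with HISAT2 2.0.4 and Bowtie2 2.2.5 (genome build Rnor_6.0 in the submitters' processing notes, annotation version not given in the sources used here) and deposited the expected counts of RSEM (estimated counts, not normalized). Of these values, 23.6% were not whole. Another pair of deposited columns holds the authors' own log2 fold change and p-value for SHR and WKY, and neither was used. All 12 count columns were mapped to samples by name, and 0 were left over.

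Counts were rounded. Pairs of groups were compared with edgeR 4.0.16 (R 4.3.3): filterByExpr, TMM, quasi-likelihood test on the 6 libraries of the pair, Benjamini-Hochberg adjustment over all genes tested. Standard errors come from the F statistic. Isoform ratios (prior count of 1 read) were compared by two-sided exact permutation tests. The steps were tested on simulated counts. DESeq2 1.42.0, other scalings, no filter, a fit of all 12 libraries, a replicate block and leave-one-out fits were alternatives. After seeing the data, fits were added without the SHR, ARB and ARNI libraries with Myl2 above 1000 CPM, and, for ARNI against ARB, without those with Adipoq above 10 CPM. Promoters and names came from RefSeq GRCr8, which is not the build of the counts. Python 3.11.15 with pandas 2.3.3 and matplotlib 3.10.9 was used.

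The 10 genes and the lists were chosen with earlier results of these data known. Genes named from a list are the called ones with the largest change, at most 3 per direction, and for 4 members the 5 most correlated genes. Exceptions are Rptor, Foxo3, Fasn and Thrsp, which were named after their values were seen. The result of 1 gene of a list is not reported here. Library totals were 11252361 to 15823525 reads, and a gene with 0 reads could still lie at up to 0.190 to 0.267 CPM (3 reads), counting error only. No 2 libraries of a group agreed within sampling noise. The labels do not say more of the replicates than that there are 3 libraries per group, so p-values measure the spread between these libraries. Same-numbered libraries deviated together in all 3 pairs only in ARNI against SHR (correlations of 0.51, 0.46 and 0.19 across genes), where the replicate block changed no call.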

Additional observations from a re-analysis of the deposited data

How the results depend on the processing

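Between SHR and WKY the number of the 10 genes called was 2. It was 3 with DESeq2 and with RLE scaling and 2 without scaling or without the filter on low counts. It was 0 in 1 fit of all 12 libraries (3 at an unadjusted p under 0.05), 0 to 4 with single libraries left out (0 without any of the WKY libraries) and 4 without the SHR library with Myl2 above 1000 CPM. With the replicate block it was 1, since Prkag3 was then at -1.40 (edgeR adjusted p = 0.0708). The labels do not say whether same-numbered libraries of SHR and WKY share anything. Their deviations from the group means correlated at 0.03, -0.05 and -0.07, and the block changed no other call of the 10 genes. In the 3 comparisons between groups of SHRs the count was 0 under every alternative.

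Under alternatives, direction was lost only by values that were not called. With single libraries left out, log2 fold changes in ARB against SHR ran for Prkab1 from -0.14 to 0.069, Prkab2 from -0.11 to 0.089, Stk11 from -0.093 to 0.041 and Acaca from -0.14 to 1.21. With single libraries left out, log2 fold changes in ARNI against SHR ran for Prkaa1 from -0.18 to 0.10, Prkaa2 from -0.036 to 0.19, Prkag1 from -0.081 to 0.12, Prkag2 from -0.92 to 0.11, Stk11 from -0.032 to 0.096 and Acacb from -0.095 to 0.38. With single libraries left out, log2 fold changes in ARNI against ARB ran for Prkaa1 from -0.035 to 0.24, Prkag3 from -0.34 to 0.54 and Acaca from -0.92 to 0.43. The log2 ratio differences in SHR against WKY ran for Prkaa2/Prkaa1 from -0.33 to 0.12. The log2 ratio differences in ARB against SHR ran for Prkaa2/Prkaa1 from -0.25 to 0.19, Prkab2/Prkab1 from -0.16 to 0.13 and Prkag2/Prkag1 from -0.023 to 0.55. The log2 ratio differences in ARNI against SHR ran for Prkaa2/Prkaa1 from -0.077 to 0.37, Prkag2/Prkag1 from -1.37 to 0.24 and Acacb/Acaca from -0.43 to 0.018. The log2 ratio differences in ARNI against ARB ran for Prkaa2/Prkaa1 from -0.037 to 0.35 and Prkag2/Prkag1 from -1.56 to 0.048. Without the libraries with Myl2 above 1000 CPM, the log2 fold change in ARB against SHR was 0.021 for Prkaa2, 0.030 for Prkab1, 0.12 for Prkab2 and 0.0044 for Stk11, and in ARNI against ARB it was -0.080 for Prkag3. Without those with Adipoq above 10 CPM, Acaca was at 0.42 in ARNI against ARB. Stk11 in ARB against SHR was at 0.00079 with DESeq2 and 0.0011 in 1 fit of all 12 libraries, and in ARNI against SHR it was at -0.022 and Prkag1 at -0.061 without scaling. The cause was not tested. Of all log2 fold changes of the 10 genes under alternatives, 480 kept direction and side of the threshold, 11 lost the call, 6 gained it and 33 reversed. Of the ratio differences, 114 kept direction and 14 reversed. With 3 libraries a group, the exact tests of ratios cannot go below 0.1.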
